A study of Mus musculus with 12 samples.

Results

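Wild-type mice given clozapine and mice of a conditional knockout genotype given vehicle were set against each other in the frontal cortex. The 2 groups are the wild-type clozapine libraries (replicates 2, 3 and 5) and the libraries labelled as Hdac2 conditional knockout given vehicle (replicates 2, 4 and 5), 6 of the 12 libraries in the series. They were chosen by their labels alone. Wild-type vehicle (replicates 1, 3 and 4) is the common starting point of both. Knockout clozapine (replicates 3, 4 and 5) entered the fit for its share of the spread and is described only where named. All groups are male mice on a C57BL/6 background. The clozapine dose in the labels is 10 mg/kg, and the study's design text calls it chronic. The knockout genotype is labelled HDAC2(loxP,loxP), CamKIIa-Cre(+,-). Its Cre is driven by a Camk2a promoter, which is active mainly in forebrain excitatory neurons, so other cortical cells would keep an intact gene. The labels give no age, no duration, no hour of tissue collection and no word on whether the wild-type mice carry loxP alleles. In the text, knockout means labelled as knockout.

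Clozapine, an atypical antipsychotic, acts at many G protein-coupled receptors, among them those for serotonin, dopamine, histamine, acetylcholine and noradrenaline. Hdac2 encodes a class I histone deacetylase, which removes acetyl groups from histone tails in the Sin3, NuRD and CoREST co-repressor complexes and is known in neurons for restraining synaptic gene expression. The comparison asks in which genes they lead to the same level and in which to different ones.

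The 9 libraries of the 3 groups held 23408372 to 28069638 counts each, and 17286 of 47069 genes had enough counts to be tested. Levels are given as CPM, a count rescaled to a common library total, in replicate order. That order is 2, 3 and 5 for wild-type clozapine, 2, 4 and 5 for knockout vehicle and 1, 3 and 4 for wild-type vehicle. The level of Hdac2 (ENSMUSG00000019777.16, chromosome 10, 36974544 to 37001889, build GRCm38) stood at 75.5, 72.4 and 73.5 CPM in wild-type clozapine, at 75.4, 76.6 and 73.3 CPM in knockout vehicle and at 75.7, 63.4 and 70.0 CPM in wild-type vehicle. These libraries overlap, and wild-type clozapine differed from knockout vehicle by -0.03 (SE 0.06, edgeR adjusted p = 0.869), with a 95% interval of -0.15 to 0.10. Counts over the whole gene include exons that a deletion would leave and transcripts of cells without Cre, so they do not check the deletion. Each genotype direction rests on the labels. On the first principal component (20.3% of the variance) knockout libraries ran between 8.49 and 18.0, and wild-type libraries between -19.8 and -8.50. The 8 excitatory neuron markers summed to 8328 to 8594 CPM in wild-type clozapine and 8295 to 9042 CPM in knockout vehicle. In wild-type vehicle they summed to 8798 to 9738 CPM. No tested marker of the 16 cell lists had a group mean of 0, but tested markers are those with enough counts. The lists also include choroid plexus, striatal, thalamic and olfactory bulb markers, so the presence of markers does not check the labelled region. The labels do not say more of the animals than group and number, so a p-value here speaks only of the spread among these libraries.

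Wild-type clozapine and knockout vehicle differed in 854 genes, 4.94% of those tested, by edgeR's quasi-likelihood test with Benjamini-Hochberg adjusted p under 0.05 (n = 3 against 3). Of these, 375 were higher in wild-type clozapine (2.17%) and 479 lower (2.77%). A difference between the groups is given as the log2 change of wild-type clozapine over knockout vehicle, with its standard error (SE). The lower genes had the larger changes, with a median log2 change of -0.47 against 0.30 for the higher ones, and 77 of them differed more than 2-fold, against 9 of the higher ones. The 3 and 3 libraries did not overlap in 371 of the 375 higher and 478 of the 479 lower genes. Over all tested genes the share without overlap was 23.3%. The called genes were picked by their p on these same values, so their lack of overlap adds no support to the calls. The count of 854 rests in part on single libraries. It was 389 without wild-type clozapine 3, 527 without knockout vehicle 2 and 481 when these 6 libraries were fitted alone, and 283 genes passed in every one of 12 fits that each left out 1 library. DESeq2 called 1060. For the 2 perturbations against wild-type vehicle, the same fit called 141 genes for clozapine (0.816%; 0.191% higher and 0.625% lower) and 1584 for the knockout (9.16%; 4.01% higher and 5.15% lower). These 2 comparisons share their 3 vehicle libraries.

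A gene was counted as alike where both groups together had moved and lay within a set margin of each other. This asked for an adjusted p under 0.05 for the mean of both groups against wild-type vehicle, no call between the groups, and a 95% interval of their difference inside -0.25 to 0.25 on the log2 scale. Values for the mean of both are log2 changes over wild-type vehicle. The mean of both groups passed against wild-type vehicle in 599 genes (3.47%), 196 higher (1.13%) and 403 lower (2.33%). Of these 599, 197 were alike (1.14% of tested genes), 55 higher (0.318%) and 142 lower (0.821%), while 117 also differed between the groups and 285 met neither criterion. Over wild-type vehicle the mean of both had a median log2 change of 0.23 in the 55 and -0.23 in the 142. The margin is wider than that, so in an alike gene 1 group may have moved further than the other. For scale, all 6 libraries of both groups lay above all 3 wild-type vehicle libraries in 2.99% of tested genes and below them in 3.98%. The wild-type vehicle libraries enter every such gene. Without wild-type vehicle 3 the 599 became 167 and the alike genes 44. Leaving out wild-type vehicle 1 gave 267 and 90. The rule was met by 18 alike genes in all 12 fits that left out 1 library. In knockout clozapine the median log2 change of the alike genes against the mean of both groups was -0.03 for the 55 higher and 0.04 for the 142 lower genes, and single genes were not tested there.

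**Figure D1:**
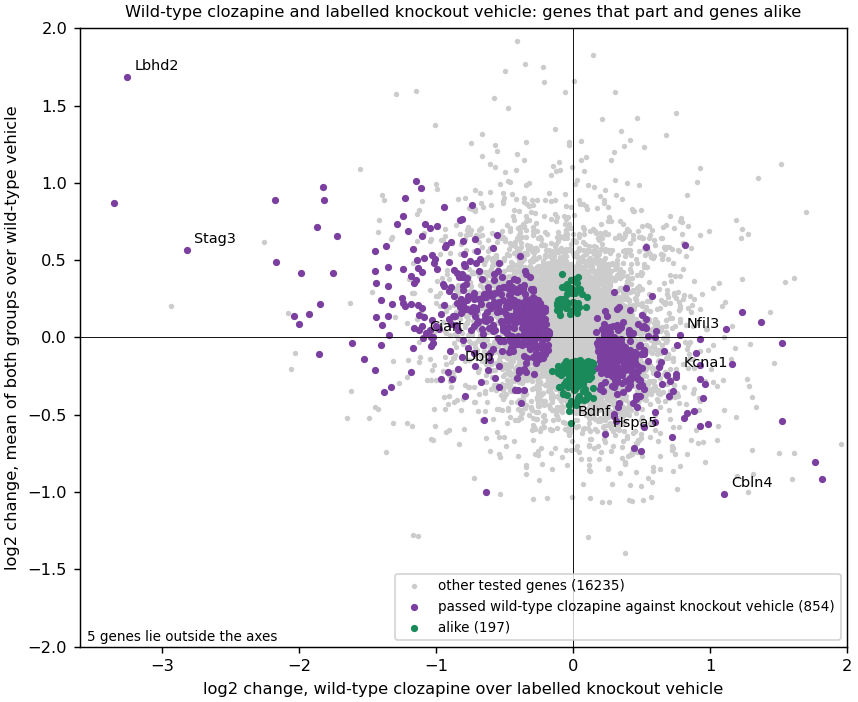
Each point is 1 of the tested genes, with its log2 change of wild-type clozapine over knockout vehicle on the x axis and that of the mean of both groups over wild-type vehicle on the y axis. Purple points are the 854 genes that differed between the groups and green points the 197 alike ones, which by their definition lie near 0 on the x axis, and 5 genes lie outside the axes.

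Circadian clock genes differed between the groups in both directions. The clock is a feedback loop in which CLOCK or NPAS2 pairs with ARNTL (BMAL1) to activate genes through E-box sequences, REV-ERB proteins such as NR1D1 repress Arntl, and output factors such as DBP and NFIL3 act in opposite ways on D-box sequences. Of the 8 tested output genes, 2 were higher and 4 lower in wild-type clozapine than in knockout vehicle, with a median log2 change of -0.25. Of the 14 core genes, 3 were higher and 1 lower, with a median of 0.11. Over all tested genes 2.17% were higher and 2.77% lower, with a median of 0.0046. The core list had 1 gene higher and 1 lower with only the groups compared, and likewise without wild-type clozapine 3 or knockout vehicle 5. Dbp (D-box binding protein) was at 61.5, 63.4 and 69.5 CPM in wild-type clozapine, at 112, 117 and 119.6 CPM in knockout vehicle and at 107, 93.4 and 98.6 CPM in wild-type vehicle. The wild-type clozapine libraries were the lowest of the 9 and did not overlap either other group, and the difference from knockout vehicle was -0.84 (SE 0.07, edgeR adjusted p = 4.43e-06). Nr1d1 (REV-ERB alpha) was at 94.8, 93.8 and 97.5 CPM in wild-type clozapine, at 135, 151 and 139 CPM in knockout vehicle and at 136, 146 and 135 CPM in wild-type vehicle. Wild-type clozapine again lay below the rest, at -0.57 (SE 0.06, edgeR adjusted p = 3.55e-05) against knockout vehicle. Ciart, a repressor of CLOCK and ARNTL, was at 11.3, 10.2 and 11.5 CPM in wild-type clozapine, at 17.7, 26.4 and 26.5 CPM in knockout vehicle and at 15.3, 16.5 and 16.6 CPM in wild-type vehicle. Here wild-type vehicle lay between the groups, which differed by -1.10 (SE 0.14, edgeR adjusted p = 0.00105).

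Other clock genes were higher in wild-type clozapine than in knockout vehicle. Arntl was at 41.9, 41 and 43.7 CPM in wild-type clozapine, at 32.9, 28.5 and 31.4 CPM in knockout vehicle and at 39.4, 36 and 40.5 CPM in wild-type vehicle. Knockout vehicle lay below the others, and its difference from wild-type clozapine was 0.45 (SE 0.07, edgeR adjusted p = 0.00173). Nfil3, a repressor at D-boxes, was at 18, 14.1 and 13.3 CPM in wild-type clozapine, at 8.45, 8.30 and 9.69 CPM in knockout vehicle and at 11.5, 12.7 and 10.1 CPM in wild-type vehicle. The groups lay on either side of wild-type vehicle (0.78, SE 0.12, edgeR adjusted p = 0.00212). Npas2 was at 43.9, 51.1 and 42.4 CPM in wild-type clozapine, at 41.2, 35.5 and 32.8 CPM in knockout vehicle and at 58, 55 and 54.5 CPM in wild-type vehicle. Both groups lay below wild-type vehicle, and knockout vehicle was the lower, with a difference of 0.33 (SE 0.08, edgeR adjusted p = 0.0294). Clock, at 77.1, 95.5 and 81.8 CPM in wild-type clozapine and 70.3, 69.6 and 67.3 CPM in knockout vehicle, differed by 0.30 (SE 0.07, edgeR adjusted p = 0.016). Hlf, a D-box activator related to Dbp, was also higher (0.24, SE 0.06, edgeR adjusted p = 0.0316). Usp2, a deubiquitinase, and Bhlhe41, a repressor at E-boxes, were lower in wild-type clozapine, with log2 changes of -0.29 and -0.36 (edgeR adjusted p = 0.0048 and 0.00552). The Period and Cryptochrome repressors were not called: Per1 differed by -0.26, Per2 by -0.10, Per3 by 0.05, Cry1 by 0.20 and Cry2 by -0.06 (edgeR adjusted p = 0.3 for Cry1 and larger for the others). Per1 was at 111, 105 and 108 CPM in wild-type clozapine and 96.6, 149 and 141 CPM in knockout vehicle, with knockout vehicle 2 below all 3 wild-type clozapine libraries and the other two above them. Leaving out 1 library ended the call for Clock (adjusted p = 0.053 to 0.072 leaving out wild-type clozapine 3 or knockout vehicle 5), Npas2 (0.076 to 0.13 leaving out wild-type clozapine 3 or knockout vehicle 4 or 5) and Hlf (0.068 to 0.12 leaving out wild-type clozapine 2 or 3 or knockout vehicle 2, 4 or 5). The other 7 called clock genes passed in all 12 such fits. Dbp overlaps Sphk2, Nr1d1 overlaps Thra, Ciart a noncoding gene, Bhlhe41 a predicted gene and Clock a pseudogene, and strand use in counting is not given in the sources used here. The labels do not say whether the groups were collected at the same hour.

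Ciart, a called output gene, is shown for its 3 E-boxes. The RefSeq promoter sequence (GRCm38.p6, chr3:95882252-95882478, minus strand) is printed 5′ to 3′ up to the annotated gene start, with each CACGTG in capitals. Of the 7 output genes with a sequence, 3 (Bhlhe41, Ciart and Tef) held CACGTG within 250 bases before the start, a palindrome read on both strands, as did 6.02% of 32851 mouse promoter windows. Among 12 core genes 2 did, Cry1 and Per1. The D-box TTATGTAA was found, on either strand, in 1 core gene (Per3) and in no output gene, against 0.819% of windows.
Ciart: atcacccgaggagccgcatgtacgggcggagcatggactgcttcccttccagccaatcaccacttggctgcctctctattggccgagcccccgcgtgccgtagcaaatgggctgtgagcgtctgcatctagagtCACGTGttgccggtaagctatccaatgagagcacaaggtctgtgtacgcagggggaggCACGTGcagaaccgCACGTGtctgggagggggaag

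**Figure D2:**
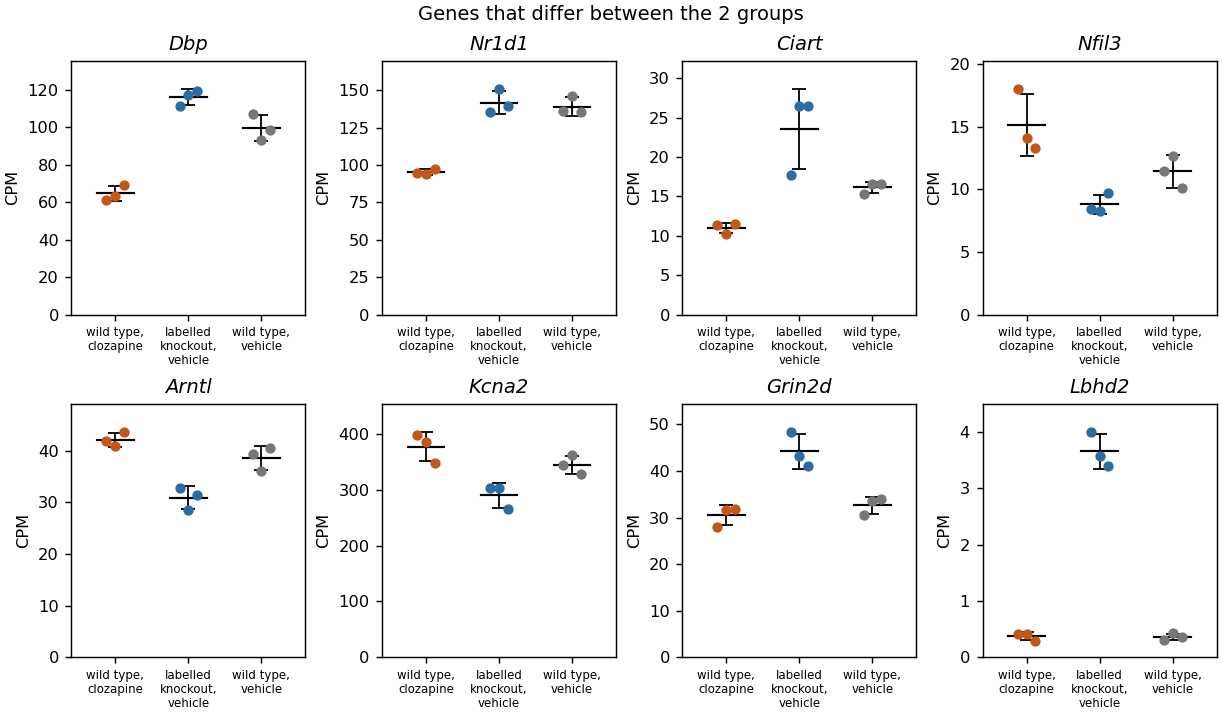
CPM of 8 genes that differed between wild-type clozapine and knockout vehicle, with wild-type vehicle at the right. Points are libraries, the long bar is the mean and the whiskers the SD (n = 3), and each axis starts at 0. The wild-type clozapine and knockout vehicle libraries do not overlap in any of the 8, and in Dbp and Nr1d1 it is wild-type clozapine, in Grin2d and Lbhd2 knockout vehicle, that lies apart from wild-type vehicle.

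The largest differences were genes of low level that were higher in knockout vehicle. Lbhd2 (ENSMUSG00000087075.1, chromosome 12, 111406809 to 111412090) was at 0.420, 0.422 and 0.293 CPM in wild-type clozapine, at 4, 3.57 and 3.39 CPM in knockout vehicle and at 0.305, 0.423 and 0.357 CPM in wild-type vehicle. The knockout libraries stood apart from all others, and the difference was -3.25 (SE 0.20, edgeR adjusted p = 3.66e-07). Stag3, a meiotic cohesin subunit, was at 0.546, 0.591 and 0.543 CPM in wild-type clozapine, at 3.18, 5.47 and 3.36 CPM in knockout vehicle and at 0.914, 1.08 and 1.03 CPM in wild-type vehicle, with -2.82 (SE 0.25, edgeR adjusted p = 1.15e-05). Ppm1j, a protein phosphatase, was at 0.588, 0.760 and 0.794 CPM in wild-type clozapine, at 3.79, 3.15 and 2.84 CPM in knockout vehicle and at 0.827, 0.884 and 0.754 CPM in wild-type vehicle, with -2.18 (SE 0.19, edgeR adjusted p = 8.36e-06). Dysf (dysferlin, a membrane repair protein of muscle) was at 3.36, 2.83 and 4.47 CPM in wild-type clozapine, at 10.3, 11.9 and 6.99 CPM in knockout vehicle and at 4.53, 4.19 and 4.36 CPM in wild-type vehicle (-1.44, SE 0.18, edgeR adjusted p = 5.13e-04). In all 4, knockout vehicle lay above every other library of the 3 groups, and wild-type clozapine was not called against wild-type vehicle (log2 change 0.06, -0.84, -0.20 and -0.29). Among the 12 lower genes of largest change were also Tmem40, Aldh3b2, Spata21, Gldn (gliomedin, of the node of Ranvier), Ltbp2 (a TGF-beta binding matrix protein), Igsf1 and Rasgrp4, with log2 changes of -1.98 to -1.35. Of the 12, 11 passed in all 12 fits without 1 library, and Rasgrp4 did not (adjusted p = 0.067 to 0.095 leaving out wild-type clozapine 2 or 3 or knockout vehicle 2 or 4). Ppm1j overlaps Fam19a3, which was lower too (-3.35, edgeR adjusted p = 0.00187). Lbhd2 is also 1 of 5 tested olfactory bulb markers, of which it and Cdhr1 were lower in wild-type clozapine (-1.01 for Cdhr1, a call that ended at an adjusted p of 0.052 to 0.065 leaving out wild-type clozapine 2 or 3). Over all tested genes 2.77% were lower, and 2 of the 5 markers had a higher level in wild-type clozapine. That list summed to 63.4 to 84.4 CPM in wild-type clozapine, 74.9 to 94.6 CPM in knockout vehicle and 64.3 to 71.1 CPM in wild-type vehicle, and the part of carried-over tissue in the difference was not tested.

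Genes higher in wild-type clozapine than in knockout vehicle had smaller changes. Tle6, a Groucho-family co-repressor, was at 9.12, 7.18 and 9.19 CPM in wild-type clozapine, at 3.88, 3.90 and 5.23 CPM in knockout vehicle and at 8.10, 7.61 and 6.78 CPM in wild-type vehicle (0.96, SE 0.14, edgeR adjusted p = 9.14e-04). Peg10, an imprinted gene derived from a retrotransposon, was at 32.1, 26 and 21.3 CPM in wild-type clozapine, at 13.1, 13.8 and 14.3 CPM in knockout vehicle and at 25.9, 27.4 and 21.8 CPM in wild-type vehicle (0.94, SE 0.13, edgeR adjusted p = 0.00103). In both, wild-type clozapine overlapped wild-type vehicle and knockout vehicle was below all other libraries. Cbln4, a cerebellin that links neurexins to postsynaptic receptors, was at 39.4, 38.8 and 31.3 CPM in wild-type clozapine, at 15.6, 14.2 and 21.2 CPM in knockout vehicle and at 60.3, 52.9 and 38.3 CPM in wild-type vehicle. Knockout vehicle was below every other library, wild-type clozapine overlapped wild-type vehicle, and the groups differed by 1.10 (SE 0.21, edgeR adjusted p = 0.0211). Pth2r, a parathyroid hormone receptor, was at 2.10, 1.44 and 1.76 CPM in wild-type clozapine, at 0.898, 0.871 and 1.21 CPM in knockout vehicle and at 0.827, 0.923 and 0.873 CPM in wild-type vehicle. There wild-type clozapine stood apart (0.81, SE 0.21, edgeR adjusted p = 0.0334). Kazald1, Npc1l1 (an intestinal sterol transporter), Atp8b1 (a phospholipid flippase), Rgsl1, Fosl2 (a Fos-family factor), Fbxo47, Nfil3 and Pcdha12 made up the 12, with log2 changes of 0.76 to 0.93. Pcdha12 shares most of its exons with the other alpha protocadherins, so how reads were divided among them is uncertain. Of the 12, 7 passed in all 12 fits without 1 library. The call ended for Cbln4 (adjusted p = 0.06 to 0.08 leaving out wild-type clozapine 2 or 3 or knockout vehicle 2 or 4), Pth2r (0.071 to 0.12 leaving out wild-type clozapine 2 or 5 or knockout vehicle 2 or 4) and Rgsl1 (0.063 leaving out wild-type clozapine 3), for Fosl2 in 8 of the fits (up to 0.122) and for Fbxo47 in 10 (up to 0.174).

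Of the called voltage-gated channel genes, most were higher in wild-type clozapine than in knockout vehicle. Of 23 tested voltage-gated potassium channel genes, 4 were higher and 1 lower, with a median log2 change of 0.14. Of 23 sodium and calcium channel genes, 4 were higher and 1 lower, with a median of 0.10. Over all tested genes these were 2.17% and 2.77%, with a median of 0.0046. With only the groups compared, the sodium and calcium list had 1 gene higher and none lower. Kcna2 (Kv1.2, an axonal channel that limits firing) was at 399, 385 and 348 CPM in wild-type clozapine, at 303, 303 and 265 CPM in knockout vehicle and at 344, 361 and 328 CPM in wild-type vehicle, with 0.38 (SE 0.06, edgeR adjusted p = 0.0031) between the groups. Its close relative Kcna1 (Kv1.1) was at 108, 98 and 83.4 CPM in wild-type clozapine, at 59.5, 67.6 and 45.6 CPM in knockout vehicle and at 84.8, 97.8 and 80.7 CPM in wild-type vehicle, with 0.75 (SE 0.14, edgeR adjusted p = 0.0127). Knockout vehicle was the lowest group in both, with no overlap. Kcnh7 (an ERG channel) was higher (0.36), and Kcna5, at 1.31 to 1.55 CPM in wild-type clozapine and 2.28 to 4.19 CPM in knockout vehicle, was lower (-1.24). Scn1a (Nav1.1, the main sodium channel of parvalbumin interneurons) was at 274, 244 and 229 CPM in wild-type clozapine, at 185, 198 and 181 CPM in knockout vehicle and at 223, 217 and 197 CPM in wild-type vehicle (0.41, SE 0.07, edgeR adjusted p = 0.00585). Scn8a (Nav1.6) and the auxiliary subunit Cacnb4 were higher (0.37 and 0.27), and the auxiliary subunit Scn3b was lower (-0.36). Kcna2 and Scn1a passed in all 12 fits without 1 library. The call ended for Kcna1 (adjusted p = 0.054 leaving out wild-type clozapine 3) and Kcnh7 (0.061 to 0.071 leaving out wild-type clozapine 2 or 3 or knockout vehicle 5). It ended likewise for Scn8a (0.059 to 0.064 leaving out wild-type clozapine 2 or 3) and Cacnb4 (0.053 to 0.14 leaving out wild-type clozapine 2 or 3 or knockout vehicle 2 or 5). Kcna5 lost its call in 9 of those fits and Scn3b in 6 (up to 0.126 and 0.114). The potassium list had 2 genes higher and none lower, and the sodium and calcium list 1 and none, when either wild-type clozapine 2 or 3 was left out. Scn1a overlaps a predicted gene and Kcnh7 overlaps Gca. Across 17197 genes, which are not independent, log2 changes between the groups had a Spearman rho of 0.19 with exonic length. With a correction for length and GC content the potassium list had 6 genes higher and 1 lower, at a median of 0.08.

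Synaptic receptor genes differed between the groups in both directions. Of 16 ionotropic glutamate receptor genes, 1 was higher and 2 lower in wild-type clozapine (18.8%, beside 4.94% of all tested genes), with a median log2 change of -0.03. With only the groups compared, 1 gene of this list passed, a lower one. Grin2d, an NMDA receptor subunit enriched in interneurons, was at 28, 31.7 and 31.9 CPM in wild-type clozapine, at 48.4, 43.2 and 41.1 CPM in knockout vehicle and at 30.6, 33.5 and 33.9 CPM in wild-type vehicle. The knockout vehicle libraries lay above all others, and the difference was -0.53 (SE 0.07, edgeR adjusted p = 7.80e-04), which passed in all 12 fits without 1 library. The gene overlaps Kdelr1. Grin2a, the main mature NMDA receptor subunit, went the other way, at 189, 187 and 160.1 CPM in wild-type clozapine and 155, 148 and 126 CPM in knockout vehicle (0.32, SE 0.07, edgeR adjusted p = 0.0206). The kainate receptor subunit Grik5 was lower (-0.21). Of 16 GABA genes, Gabrd (an extrasynaptic subunit) was higher (0.24) and Gabra3 lower (-0.28), 12.5% beside 4.94% of all tested genes. Vamp1 and Syt2, release proteins of fast inhibitory terminals, were the 2 called presynaptic genes of 24, both higher (0.34 and 0.36). They make 8.33% of that list, beside the same 4.94%. Shank2, a postsynaptic scaffold, was at 230.2, 231 and 215 CPM in wild-type clozapine, at 192, 195 and 152 CPM in knockout vehicle and at 271, 284 and 255 CPM in wild-type vehicle. It was below wild-type vehicle in both groups and lower in knockout vehicle (0.33, SE 0.08, edgeR adjusted p = 0.0218). The presynaptic adhesion gene Nrxn2 was lower in wild-type clozapine (-0.26). Leaving out 1 library ended the call for Grin2a (adjusted p = 0.065 to 0.088 leaving out wild-type clozapine 2 or 3 or knockout vehicle 5), Gabrd (0.066 to 0.11 leaving out wild-type clozapine 2 or 5 or knockout vehicle 2 or 4), Gabra3 (0.054 to 0.057 leaving out wild-type clozapine 2 or knockout vehicle 4) and Shank2 (0.068 to 0.083 leaving out wild-type clozapine 2 or 3). The same held for Nrxn2 (0.07 to 0.071 leaving out wild-type clozapine 3 or knockout vehicle 4) and Grik5 (0.051 leaving out knockout vehicle 4). Vamp1 and Syt2 each lost theirs in 8 of the 12 fits (up to 0.15 and 0.148).

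Some cytosolic heat shock and secretory peptide genes also differed. Of 23 heat shock genes 4 were higher in wild-type clozapine (17.4%, beside 2.17% of all tested genes) and none lower, with a median log2 change of 0.14. The count was 8 with DESeq2 and 2 with only the groups compared or without wild-type clozapine 3. Chordc1, an HSP90 co-chaperone, was at 48, 53.1 and 49.7 CPM in wild-type clozapine, at 35.5, 39.3 and 37.9 CPM in knockout vehicle and at 50.3, 49.4 and 47.4 CPM in wild-type vehicle. Knockout vehicle was below every other library, and the difference of 0.42 (SE 0.06, edgeR adjusted p = 7.47e-04) passed in all 12 fits without 1 library. Hspa8 (HSC70, the constitutive HSP70) was at 1710.0, 1849 and 1658 CPM in wild-type clozapine and 1507, 1486 and 1402 CPM in knockout vehicle (0.25, SE 0.06, edgeR adjusted p = 0.0195). Hspa4l and Hspb1 (HSP27) were higher too (0.28 and 0.49). Leaving out 1 library ended the call for Hspa8 (adjusted p = 0.051 to 0.098 leaving out wild-type clozapine 3 or knockout vehicle 5), Hspa4l (0.07 leaving out wild-type clozapine 3) and Hspb1 (0.07 to 0.1 leaving out wild-type clozapine 2 or knockout vehicle 2 or 4). Of 20 neuropeptide and granule genes, 3 were lower in wild-type clozapine (15.0%, beside 2.77% of all tested genes) and none higher, and 1 was lower without knockout vehicle 4. Cck (cholecystokinin) was at 299, 324 and 342 CPM in wild-type clozapine, at 422, 434 and 397 CPM in knockout vehicle and at 362, 347 and 429.9 CPM in wild-type vehicle. Wild-type clozapine was below every other library, and the groups differed by -0.38 (SE 0.08, edgeR adjusted p = 0.0124). Vgf, a secreted peptide precursor, was at 344, 373 and 308 CPM in wild-type clozapine, at 433, 467 and 433 CPM in knockout vehicle and at 505, 522 and 544 CPM in wild-type vehicle. Both groups were below wild-type vehicle, wild-type clozapine the lower (-0.38, SE 0.08, edgeR adjusted p = 0.0141), a call that ended at an adjusted p of 0.05 leaving out knockout vehicle 4. Chga (chromogranin A) was lower as well (-0.32, SE 0.08, edgeR adjusted p = 0.0326), a call that ended at 0.062 to 0.11 leaving out wild-type clozapine 3 or 5 or knockout vehicle 2 or 4. Nr3c1, the glucocorticoid receptor, was at 118, 132 and 118 CPM in wild-type clozapine and 101, 97.9 and 90.6 CPM in knockout vehicle (0.34, SE 0.07, edgeR adjusted p = 0.00649). Mt2, a metallothionein induced by glucocorticoids, was lower, at -0.59 (edgeR adjusted p = 0.0252, ended at 0.052 to 0.096 leaving out wild-type clozapine 3 or 5 or knockout vehicle 2 or 5). These were the 2 called of 18 tested glucocorticoid-responsive genes (11.1%, beside 4.94% of all tested genes), and the other 16 were not called.

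Of the 12 lower alike genes of smallest p, 4 are given in full. Mical2, an actin oxidoreductase, was at 587, 545 and 514 CPM in wild-type clozapine, at 584, 584 and 516 CPM in knockout vehicle and at 725, 828 and 758 CPM in wild-type vehicle. The 6 libraries of both groups overlapped each other and lay below the 3 wild-type vehicle libraries. The mean of both over wild-type vehicle was -0.47 (SE 0.06, edgeR adjusted p = 3.54e-04), and the groups differed by -0.03 (95% interval -0.17 to 0.11). Ccnd1 (cyclin D1) was at 46.5, 51.5 and 43.6 CPM in wild-type clozapine, at 49.5, 50.2 and 43.8 CPM in knockout vehicle and at 62, 63.9 and 63.7 CPM in wild-type vehicle. The mean of both was at -0.41 (SE 0.06, edgeR adjusted p = 0.00175), and the interval between the groups was -0.17 to 0.14. Mast3, a microtubule-associated kinase, was at 404, 438 and 386 CPM in wild-type clozapine, at 388, 428 and 376 CPM in knockout vehicle and at 515, 544 and 516 CPM in wild-type vehicle (-0.38, SE 0.05, edgeR adjusted p = 7.31e-04 for the mean of both; interval between groups -0.08 to 0.17). Ptpn5 (STEP, a phosphatase that opposes synaptic strengthening) was at 221, 223 and 223 CPM in wild-type clozapine, at 210.5, 208 and 202 CPM in knockout vehicle and at 264, 299.8 and 269 CPM in wild-type vehicle (-0.37, SE 0.04, edgeR adjusted p = 3.54e-04). There the 3 and 3 libraries did not overlap, but the difference had an adjusted p of 0.275 and an interval of 0.00 to 0.21. Syt13, Cacng2 (stargazin, which traffics AMPA receptors), Cx3cl1 (fractalkine, the neuronal ligand of microglial CX3CR1), Rab15, Dmtn, Scg2, Tmem108 and Calr completed the 12 lower genes of smallest p, with log2 changes of -0.44 to -0.26 for the mean of both. All 12 kept their call for the mean of both in the 12 fits that left out 1 library. Mical2, Ccnd1, Mast3, Ptpn5, Rab15 and Dmtn also met the whole rule for alike in every such fit, and the others did not. The 12 higher ones included Sun2, a nuclear envelope protein, at 92.1, 75.3 and 84.8 CPM in wild-type clozapine, at 81, 76.9 and 88 CPM in knockout vehicle and at 63.6, 64.7 and 62 CPM in wild-type vehicle (0.39, SE 0.06, edgeR adjusted p = 0.00207 for the mean of both; interval between groups -0.10 to 0.18). Ypel5 was another, at 83, 77.2 and 80.2 CPM in wild-type clozapine, at 81, 77.3 and 83.9 CPM in knockout vehicle and at 69.9, 62.5 and 65.6 CPM in wild-type vehicle (0.29, SE 0.05, edgeR adjusted p = 0.00342; interval -0.13 to 0.10). In both the 6 libraries lay above wild-type vehicle. Of those 12, 4 kept the call for the mean of both in all 12 such fits.

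The chaperone genes of the endoplasmic reticulum (ER) that passed were all lower for the mean of both groups than in wild-type vehicle. These proteins fold secreted and membrane proteins, and their genes are induced together by the factors ATF6 and XBP1 when unfolded proteins build up. Of 18 tested ER chaperone and disulfide isomerase genes, 10 were lower for the mean of both groups and none higher, beside 2.33% of all tested genes called lower. Of the 18, 3 were alike, beside 0.821% of all tested genes alike and lower. The list had a median log2 change of -0.27 for the mean of both, beside 0.0038 over all genes. The median was -0.22 for wild-type clozapine and -0.32 for knockout vehicle against the wild-type vehicle libraries they share. Hspa5 (BiP, the main ER HSP70; ENSMUSG00000026864.13, chromosome 2, 34771970 to 34777547) was at 265, 265 and 253 CPM in wild-type clozapine, at 227, 218 and 220.3 CPM in knockout vehicle and at 394, 374 and 345 CPM in wild-type vehicle. All 6 libraries were below wild-type vehicle, with -0.63 (SE 0.04, edgeR adjusted p = 2.67e-06) for the mean of both, and knockout vehicle was the lower group, with 0.23 (SE 0.05, edgeR adjusted p = 0.0187) between the groups. Sdf2l1, a BiP cofactor, was at 13.4, 11.1 and 12.3 CPM in wild-type clozapine, at 9.22, 9 and 8.86 CPM in knockout vehicle and at 18.5, 17.3 and 16.1 CPM in wild-type vehicle. Its log2 change was -0.72 (SE 0.09, edgeR adjusted p = 5.36e-04) for the mean of both and 0.44 (SE 0.11, edgeR adjusted p = 0.0298) between the groups. Calr (calreticulin) was at 348, 347 and 338 CPM in wild-type clozapine, at 324, 309 and 303 CPM in knockout vehicle and at 400.2, 421 and 409 CPM in wild-type vehicle (-0.32, SE 0.04, edgeR adjusted p = 3.54e-04). It counts as alike because the difference of 0.14 between groups had an adjusted p of 0.0763 and an interval of 0.05 to 0.24. Its 3 and 3 libraries did not overlap. Pdia3, a disulfide isomerase, was alike too (-0.23 for the mean of both). Dnajb11, a BiP co-chaperone, was alike with overlapping libraries, at 56.8, 52.8 and 58.1 CPM in wild-type clozapine, at 57.4, 52.6 and 53.8 CPM in knockout vehicle and at 71.7, 69.7 and 63.3 CPM in wild-type vehicle (-0.30, SE 0.05, edgeR adjusted p = 0.00342; interval between groups -0.09 to 0.16). Pdia4, Pdia6, Manf, Hyou1 and Creld2 were the other 5, at -0.51, -0.43, -0.45, -0.36 and -0.51 for the mean of both.

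Between the groups, 14 of the 18 ER genes had a higher level in wild-type clozapine. Of these, 3 passed the test, Hspa5, Sdf2l1 and Pdia4, all higher (16.7% of the 18, beside 2.17% of all tested genes). These 3 depend on single libraries. The list had 0 called genes without wild-type clozapine 2 or knockout vehicle 4, and 1 without wild-type clozapine 3 or 5 or knockout vehicle 2 or 5. The 10 lower genes for the mean of both were 10 or 11 in each of the 12 fits that left out 1 library. With the replicate number as a block they were 5. Xbp1 itself was at 83.7, 89.2 and 84.7 CPM in wild-type clozapine, at 75.7, 72.4 and 77.6 CPM in knockout vehicle and at 105, 102 and 89.5 CPM in wild-type vehicle (-0.30, SE 0.05, edgeR adjusted p = 0.00533 for the mean of both, a call that ended at 0.05 leaving out wild-type vehicle 3). It and Syvn1, an ER ubiquitin ligase (-0.20, a call that ended in 7 of the 12 fits), were the 2 called of 20 stress sensor and factor genes. Over all tested genes 2.33% were lower for the mean of both. None of the 20 differed between the groups. Pdia6 overlaps Atp6v1c2 and lies in a stretch of chromosome 12 where 7 of 17 tested genes passed in at least 1 of the 2 comparisons. Manf overlaps Dcaf1 and Rbm15b.

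The ER stress element, CCAAT and CCACG with 9 bases between them, is the known site of ATF6 and its partners in promoters of ER chaperone genes. On either strand it was present within 250 bases before the start of 7 of the 16 genes with a RefSeq sequence (Calr, Canx, Creld2, Dnajc3, Hsp90b1, Hspa5 and Pdia6), against 0.113% of 32851 windows. Of the 7, Hspa5, Calr, Creld2 and Pdia6 were lower for the mean of both, while Canx (-0.04), Hsp90b1 (-0.16) and Dnajc3 (-0.20) did not pass. Sequences are from RefSeq (GRCm38.p6), 5′ to 3′ on the gene's strand, with the element in capitals. In Calr and Creld2 the element lies on the opposite strand and is printed as its reverse complement. Shown are 2 genes that were lower for the mean of both (Calr, chr8:84846935-84847181, minus strand; Creld2, chr15:88819396-88819645, plus strand), 1 that did not pass (Canx, chr11:50325674-50325923, minus strand), and for Hspa5 the element with 5 bases on each side (chr2:34772020-34772048, plus strand). GENCODE places that Hspa5 stretch inside the gene.
Hspa5: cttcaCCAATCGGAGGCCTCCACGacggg
Calr: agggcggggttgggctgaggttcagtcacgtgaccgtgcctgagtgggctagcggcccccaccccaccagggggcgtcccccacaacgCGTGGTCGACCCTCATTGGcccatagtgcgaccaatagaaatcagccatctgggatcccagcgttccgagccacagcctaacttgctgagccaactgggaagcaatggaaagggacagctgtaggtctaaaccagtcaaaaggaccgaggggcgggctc
Creld2: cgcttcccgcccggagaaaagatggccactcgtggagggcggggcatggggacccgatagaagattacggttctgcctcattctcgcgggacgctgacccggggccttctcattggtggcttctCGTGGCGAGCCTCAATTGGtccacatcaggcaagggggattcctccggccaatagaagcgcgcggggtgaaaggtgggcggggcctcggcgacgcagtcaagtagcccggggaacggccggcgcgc
Canx: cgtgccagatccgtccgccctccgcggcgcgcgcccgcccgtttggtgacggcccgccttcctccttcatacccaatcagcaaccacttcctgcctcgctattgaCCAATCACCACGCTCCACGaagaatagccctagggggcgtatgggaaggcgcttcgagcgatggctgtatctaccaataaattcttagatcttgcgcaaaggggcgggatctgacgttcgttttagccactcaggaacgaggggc

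The cholesterol synthesis and uptake genes that passed were all higher for the mean of both groups than in wild-type vehicle. Neurons and glia make their own cholesterol, and the enzymes are induced as a set by SREBP2 when membrane sterol falls. Of 25 tested genes, 12 were higher for the mean of both groups and none lower, beside 1.13% of all tested genes called higher. Of the 25, 4 were alike (Acat2, Cyp51, Hmgcs1 and Lss), beside 0.318% of all tested genes alike and higher. The list had a median log2 change of 0.22 for the mean of both. The median was 0.18 for wild-type clozapine and 0.29 for knockout vehicle against the wild-type vehicle libraries they share. Insig1, the sterol sensor that retains SREBP in the ER, was at 78.9, 67.4 and 83.2 CPM in wild-type clozapine, at 90.2, 81.4 and 87.6 CPM in knockout vehicle and at 58.8, 62.5 and 60.8 CPM in wild-type vehicle (0.42, SE 0.06, edgeR adjusted p = 0.00165 for the mean of both). All 6 libraries lay above wild-type vehicle, and the difference between groups was -0.18 (95% interval -0.32 to -0.03, beyond the margin for alike). Hmgcs1, which makes HMG-CoA, was at 217, 249.6 and 254 CPM in wild-type clozapine, at 263, 245 and 263 CPM in knockout vehicle and at 218, 194 and 217 CPM in wild-type vehicle (0.25, SE 0.06, edgeR adjusted p = 0.0228). Wild-type clozapine 2 overlapped wild-type vehicle. Sqle (squalene epoxidase) was higher for the mean of both, at 0.27. Between the groups 2 of the 25 passed, both lower in wild-type clozapine (8.0%, beside 2.77% of all tested genes). One of them was Dhcr7, the last enzyme of one branch (-0.24, SE 0.06, edgeR adjusted p = 0.0401). The count in this list depends on single libraries: 2 of its genes passed for the mean of both without wild-type vehicle 3, and 5 with either wild-type clozapine 5 or wild-type vehicle 1 left out. There were 6 without knockout vehicle 2 or knockout clozapine 4, and 7 without knockout vehicle 5. With 1 surrogate variable 3 genes passed and none were alike, and with only the groups compared 7 passed and 1 was alike. With the replicate number as a block 2 passed and none were alike. The list's median was 0.20 to 0.26 over the 12 fits. The 2 genes that differed between the groups became 0 without wild-type clozapine 3 or 5, knockout vehicle 2 or 5, or wild-type vehicle 3.

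Hmgcs1 is printed because, of 17 cholesterol genes with a RefSeq sequence, it was the only one that held the sterol regulatory element TCACNCCAC within 250 bases before the start on either strand, as did 1.05% of all windows (chr13:119690101-119690350, plus strand; element in capitals). The gene lies next to Tmem267 and Ccl28 on chromosome 13, which were also higher for the mean of both (1.23 and 1.66 on the log2 scale, edgeR adjusted p = 0.00753 and 0.00192), and the part of that locus in its level was not tested.
Hmgcs1: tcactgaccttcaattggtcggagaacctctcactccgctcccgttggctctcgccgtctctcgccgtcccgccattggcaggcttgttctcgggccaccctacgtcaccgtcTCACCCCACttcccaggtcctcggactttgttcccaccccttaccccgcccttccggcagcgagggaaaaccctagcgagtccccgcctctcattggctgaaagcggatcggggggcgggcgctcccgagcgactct

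**Figure D3:**
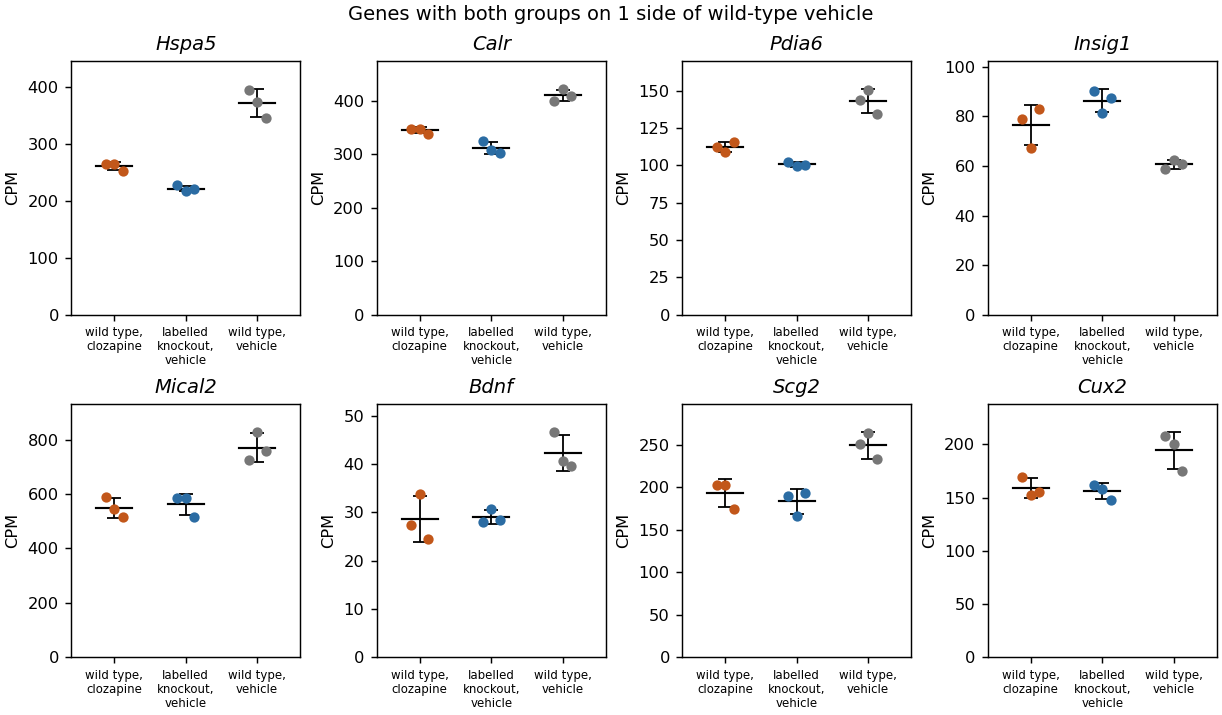
CPM of 8 genes in which all libraries of wild-type clozapine and knockout vehicle lie on 1 side of the 3 wild-type vehicle libraries. Points are libraries, the long bar is the mean and the whiskers the SD (n = 3), and each axis starts at 0. Calr, Mical2, Bdnf, Scg2 and Cux2 met the rule for alike, Hspa5 differed between the groups, and Pdia6 and Insig1 had intervals beyond the margin.

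Activity-induced genes gave a mixed picture. These are transcribed within minutes to hours of synaptic input. Of 33 tested, 7 were lower for the mean of both groups and none higher, while between the groups 2 were higher in wild-type clozapine (Nfil3 and Fosl2) and 1 lower (Vgf). Over all tested genes, 2.33% were lower for the mean of both, and 2.17% were higher and 2.77% lower between the groups. The list's median log2 change was -0.07 for wild-type clozapine and -0.37 for knockout vehicle against the shared wild-type vehicle libraries, and 0.19 between the groups, with 26 of 33 genes at a higher level in wild-type clozapine. Bdnf, the neurotrophin, was at 27.4, 33.9 and 24.6 CPM in wild-type clozapine, at 27.9, 30.6 and 28.5 CPM in knockout vehicle and at 46.7, 40.6 and 39.7 CPM in wild-type vehicle. The groups overlapped, all 6 libraries were below wild-type vehicle, and the mean of both was at -0.55 (SE 0.08, edgeR adjusted p = 0.00254), with an interval of -0.24 to 0.20 between the groups. Scg2 (secretogranin II) was the other alike gene, at 203, 203 and 175 CPM in wild-type clozapine, at 190.1, 167 and 194 CPM in knockout vehicle and at 251, 265 and 233 CPM in wild-type vehicle (-0.41, SE 0.06, edgeR adjusted p = 0.00126). Bdnf and Scg2 held their call for the mean of both in all 12 fits without 1 library, but neither met the whole rule for alike in all 12. Homer1, a scaffold with an activity-induced short form, was at 195, 348 and 222 CPM in wild-type clozapine, at 175, 212 and 169 CPM in knockout vehicle and at 450.3, 398 and 347 CPM in wild-type vehicle. Wild-type clozapine 3 was the highest of its group and overlapped wild-type vehicle. Its call for the mean of both (-0.87, SE 0.17, edgeR adjusted p = 0.0294) ended at 0.051 to 0.12 leaving out wild-type clozapine 5 or knockout vehicle 2 or 5 or wild-type vehicle 1 or 3 or knockout clozapine 4. Egr3, a zinc finger factor, was at 101, 149 and 105 CPM in wild-type clozapine and 87.3, 107 and 78.5 CPM in knockout vehicle. It was lower for the mean of both against wild-type vehicle (-0.80, SE 0.15, edgeR adjusted p = 0.0255) and had no call between the groups. This call ended at 0.056 to 0.094 leaving out wild-type clozapine 5, knockout vehicle 2 or 5, or wild-type vehicle 1, 3 or 4. The list had 3 genes lower without wild-type vehicle 3, 4 if wild-type clozapine 5, knockout vehicle 5 or wild-type vehicle 1 was left out, and 9 if wild-type clozapine 3 was. Fos was at 27.7, 25.3 and 29.3 CPM in wild-type clozapine, at 12.8, 18.2 and 16.3 CPM in knockout vehicle and at 21, 25.3 and 23.8 CPM in wild-type vehicle. The groups did not overlap, but the difference of 0.80 had an adjusted p of 0.0541. Arc was at 344, 197 and 297 CPM in wild-type clozapine and 143, 187 and 237 CPM in knockout vehicle and overlapped between the groups (0.56, SE 0.30, edgeR adjusted p = 0.351). Fos and Arc gave no call on either contrast (-0.17 and -0.35 for the mean of both, edgeR adjusted p = 0.692 and 0.548).

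Receptor genes of the kinds clozapine binds passed between the groups at about the share of all tested genes (6.67%, beside 4.94%), as did histone deacetylase genes (5.88%). For the mean of both groups, 2 of the 30 receptor genes were higher and 4 lower, beside 1.13% and 2.33% of all tested genes. Of 30 tested serotonin, dopamine, adrenergic, muscarinic and histamine receptor genes, 2 were lower in wild-type clozapine than in knockout vehicle, the presynaptic histamine receptor Hrh3 (-0.46, SE 0.10, edgeR adjusted p = 0.0247) and Drd5 (-1.12, SE 0.30, edgeR adjusted p = 0.038), and the list's median was -0.01. It had 0 called genes without wild-type clozapine 3 or knockout vehicle 4, and 2 higher ones with none lower without wild-type clozapine 2. Htr2c was at 9.41, 8.65 and 9.15 CPM in wild-type clozapine, at 10.5, 12.4 and 9.97 CPM in knockout vehicle and at 6.14, 5.46 and 6.90 CPM in wild-type vehicle, above wild-type vehicle in all 6 libraries (0.69, SE 0.11, edgeR adjusted p = 0.00318 for the mean of both). Adra2c was at 24.4, 25 and 24 CPM in wild-type clozapine, at 20.1, 21.8 and 22.4 CPM in knockout vehicle and at 32.2, 29.6 and 28.7 CPM in wild-type vehicle, below it in all 6 (-0.40, SE 0.05, edgeR adjusted p = 0.00109). Hrh1 (-0.45), Adra1d (-0.34) and Htr1b (-0.58) were lower and Adra2a (0.45) higher for the mean of both, and none of the 6 met the rule for alike. The calls ended for Adra1d (adjusted p = 0.055 to 0.082 leaving out wild-type vehicle 1, 3 or 4), Htr1b (0.11 leaving out wild-type vehicle 1 or 3) and Adra2a (0.058 to 0.14 leaving out wild-type clozapine 2 or 5 or wild-type vehicle 1 or 3). Htr2a, the 5-HT2A receptor, was at 17.7, 18.6 and 18.3 CPM in wild-type clozapine and 27.5, 38.9 and 19.3 CPM in knockout vehicle. The libraries did not overlap, but those of knockout vehicle spread widely and the difference did not pass (-0.64, SE 0.21, edgeR adjusted p = 0.114). Of 17 histone deacetylase genes, Hdac4, a class IIa enzyme, was at 68.2, 74.2 and 65.3 CPM in wild-type clozapine, at 60.4, 53.1 and 54.9 CPM in knockout vehicle and at 77.4, 78.2 and 70.8 CPM in wild-type vehicle. It was higher in wild-type clozapine than in knockout vehicle. The change of 0.30 (SE 0.06, edgeR adjusted p = 0.0114) ended as a call at 0.065 leaving out wild-type clozapine 3. Hdac5, its relative, was alike and lower (-0.22, SE 0.05, edgeR adjusted p = 0.0207 for the mean of both), a call that ended at 0.058 to 0.14 leaving out wild-type vehicle 1 or 3. Of 26 co-repressor subunit genes none differed between the groups, and Sin3a, a scaffold of HDAC1 and HDAC2, was alike and higher (0.21, SE 0.05, edgeR adjusted p = 0.0408), a call that ended in 10 of the 12 fits.

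Several lists had no called gene between the groups, where 4.94% of all tested genes were called, and a count of 0 in the shorter lists is near that share. None of 40 nuclear respiratory chain, 31 proteasome, 44 cytosolic ribosomal, 13 mitochondrially encoded, 15 NF-kB, 7 metabotropic glutamate receptor or 20 ER stress sensor genes passed between the groups, with list medians of -0.12 to 0.07. All 13 mitochondrially encoded genes were at a lower level in wild-type clozapine than in knockout vehicle, though none was called. Apart from the ER chaperone and cholesterol lists, a list held at most 2 alike genes. The activity list and the sodium and calcium channel list held 2 each (6.06% and 8.7%, beside 1.14% of all tested genes). Alike genes outside the ER chaperone and cholesterol lists included Stx1a, a presynaptic gene, at -0.16 for the mean of both. Cacna1g, a calcium channel subunit, was another, at -0.26. The call of Stx1a ended in 11 of the 12 fits without 1 library (adjusted p up to 0.16), and that of Cacna1g ended at 0.057 to 0.19 leaving out wild-type vehicle 3 or 4.

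**Figure D4:**
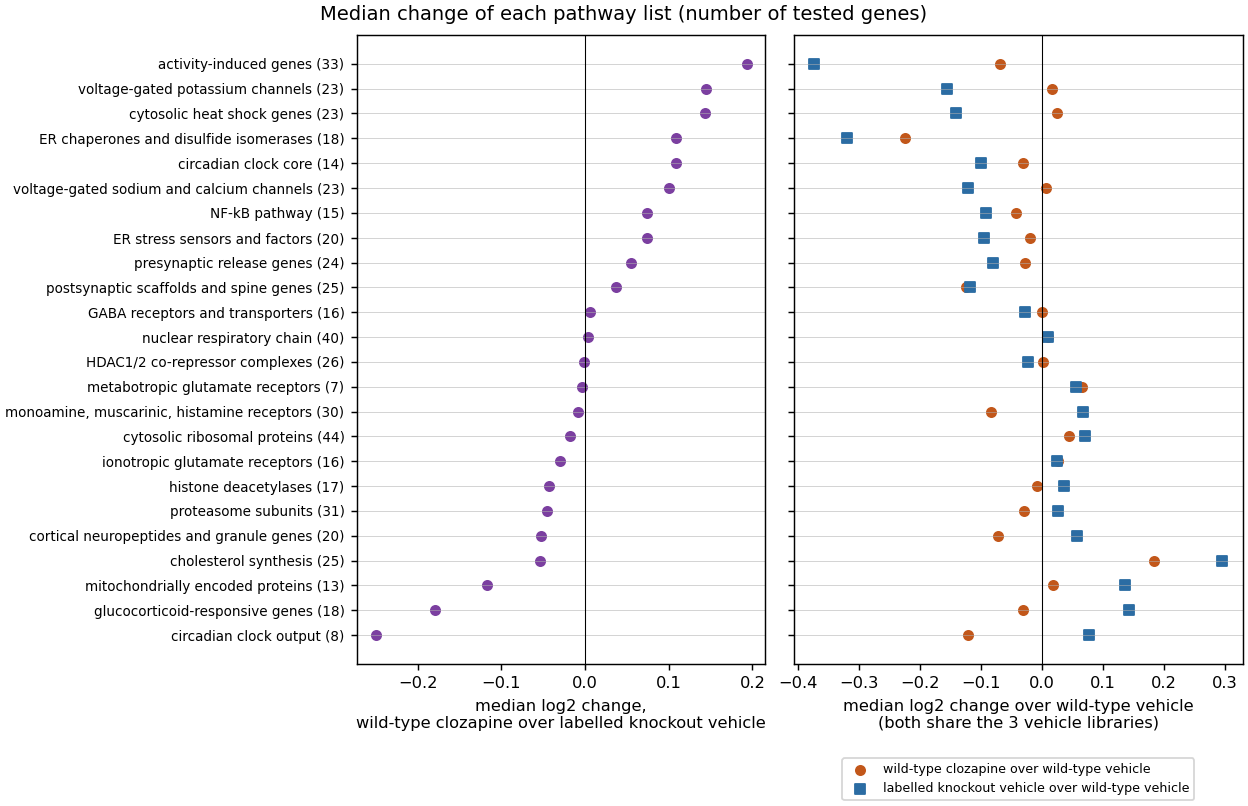
Median log2 change of each of the 24 pathway lists, with the number of tested genes in brackets. The left panel gives wild-type clozapine over knockout vehicle, and the right panel gives each group over the same 3 wild-type vehicle libraries, so its 2 symbols are not independent. The medians of ER chaperones lie below 0 and those of cholesterol synthesis above 0 in both groups, while activity-induced genes are at -0.07 in wild-type clozapine and at -0.37 in knockout vehicle.

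Of 148 tested cell markers in 16 lists, 7 passed between wild-type clozapine and knockout vehicle (4.73%, beside 4.94% of all tested genes). In bulk tissue fewer cells of a type and less RNA per cell cannot be told apart. Pdgfra, the defining receptor of oligodendrocyte precursors, was at 42.1, 37.3 and 38.7 CPM in wild-type clozapine, at 50.5, 50.7 and 51 CPM in knockout vehicle and at 40.4, 38 and 40.1 CPM in wild-type vehicle. It was the only called gene of 8 in that list (-0.37, SE 0.06, edgeR adjusted p = 0.00378), and the knockout libraries were the highest. Of the 8 precursor markers, 6 had a higher level in wild-type clozapine, and the list's median log2 change was 0.04. The list summed to 238 to 265 CPM in wild-type clozapine and to 250 to 261 CPM in knockout vehicle, with overlap. C1qb of the microglia list was lower (-0.38, SE 0.08, edgeR adjusted p = 0.0136), a call that ended at 0.071 leaving out wild-type clozapine 3. The 12 microglia markers summed to 379 to 415 CPM in wild-type clozapine, 429 to 451 CPM in knockout vehicle and 374 to 420 CPM in wild-type vehicle, without overlap between the first 2 groups. Rasgrf2 of upper-layer neurons (0.27), Dlx1 of interneurons (0.24) and Ermn of oligodendrocytes (0.60) were higher in wild-type clozapine, and the calls of Dlx1 and Ermn ended in 4 and 3 of the 12 fits. Cux2, which defines upper-layer neurons, was alike, at 169, 152 and 155 CPM in wild-type clozapine, at 162, 158 and 147 CPM in knockout vehicle and at 208, 201 and 175 CPM in wild-type vehicle (-0.31, SE 0.05, edgeR adjusted p = 0.00533 for the mean of both; interval between groups -0.11 to 0.16). Red blood cell markers summed to 212 to 437 CPM in wild-type clozapine, 139 to 205 CPM in knockout vehicle and 138 to 180 CPM in wild-type vehicle, without overlap between the first 2 groups and with none of the 5 genes called. Choroid plexus markers summed to 3.89 to 4.94 CPM in wild-type clozapine, 8.08 to 10.6 CPM in knockout vehicle and 5.31 to 61.7 CPM in wild-type vehicle. The highest was wild-type vehicle 3, where Ttr was at 53.3 CPM. Wild-type vehicle 3 is also the library on which the counts for the mean of both depend most, and the part of choroid plexus in those counts was not tested.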

How the data were processed

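Frontal cortex mRNA of 12 mouse libraries was read from the count table that the authors deposited. Its values are estimated counts per gene, of which 7.13% to 7.64% per library were not whole, and reads were aligned to GRCm38 with STAR and counted with featureCounts, per the submitters' processing notes. Strand use and the treatment of reads with several matches are not given in the sources used here, so overlapping and near-identical genes are uncertain. Groups and replicate numbers are those of the labels.

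Estimated counts were rounded to whole numbers before the fit. Genes with enough counts by edgeR's filterByExpr were kept (17286 of 47069, with 99.93% of counts). One edgeR 4.0.16 quasi-likelihood fit (robust, TMM scaling, R 4.3.3) held all 12 libraries in 4 groups of 3, with contrasts for wild-type clozapine against knockout vehicle, for the mean of both against wild-type vehicle, and for each against wild-type vehicle. Benjamini-Hochberg adjustment ran over all tested genes, at a threshold of 0.05. Standard errors were derived from edgeR's log2 change and F statistic, as the change over the square root of F, and 95% intervals from them and the fit's degrees of freedom. Library totals of 23408372 to 28069638 counts limit the precision of genes near 1 CPM. The fit was also run on simulated counts drawn from its own estimate of the spread, with changes planted in genes above 1 CPM. The simulation held no effect of single libraries, so it does not speak to how the results depend on them. Its outcome is not given here.

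Genes were named by a rule: the targeted gene, the 12 higher and 12 lower called genes of largest log2 change with non-overlapping libraries and a mean of at least 1 CPM, the 12 higher and 12 lower alike genes of smallest p, leaving out predicted genes and pseudogenes, and up to 6 called members of each list by smallest p. Other named list members, Fam19a3, Tmem267, Ccl28 and the genes of the chromosome windows were added after their values were seen. Some genes that the rule names are not reported here, and they remain in the counts and medians. The members and lists were chosen with earlier results of these data known. Names come from GENCODE M21 and promoter sequences from RefSeq (GRCm38.p6), searched over 250 bases before the start. Printed stretches leave out bases that GENCODE places inside the gene, except that of Hspa5, which lies inside it. Alternatives were DESeq2 1.42.0, limma-voom 3.58.1, DESeq2's size factors, 2 other filters, only the groups compared, a replicate block, 1 surrogate variable (sva 3.50.0), a threshold of 0.10, unrounded counts, a length and GC correction (mgcv 1.9.3), margins of 0.15 and 0.4, and leaving out each library.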

Additional observations from a re-analysis of the deposited data

How the results depend on the processing

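The number of genes that differed between wild-type clozapine and knockout vehicle (854) was 481 with only these groups fitted and 1581 at a threshold of 0.10, and lay between 389 (without wild-type clozapine 3) and 927 over the fits that left out 1 library. The number for the mean of both against wild-type vehicle (599) was 284 with 1 surrogate variable and 1087 at 0.10, and 167 (without wild-type vehicle 3) to 657 without 1 library, among them 267 (wild-type vehicle 1 left out), 373 (wild-type clozapine 5) and 391 (knockout vehicle 2). For clozapine against vehicle in wild type (141), DESeq2 gave 288, no low-count filter 304, only the groups compared 92, 1 surrogate variable 49 and a threshold of 0.10 260, and leaving out 1 library gave 20 (wild-type vehicle 3) to 219 (knockout vehicle 5), with 36 (wild-type clozapine 5 left out), 71 (wild-type vehicle 1), 89 (knockout clozapine 4) and 91 (wild-type clozapine 2). For the knockout against vehicle in wild type (1584), a threshold of 0.10 gave 2480, and leaving out 1 library gave 617 (wild-type vehicle 3) to 1722, with 837 (knockout vehicle 2 left out), 943 (knockout vehicle 5) and 954 (wild-type vehicle 1). The alike genes (197) numbered 112 with only the groups compared, 78 with 1 surrogate variable, 358 at 0.10, 31 at a margin of 0.15 and 351 at a margin of 0.4, and 44 (without wild-type vehicle 3) to 200 without 1 library, with 86 (knockout vehicle 2 left out), 90 (wild-type vehicle 1), 96 (wild-type clozapine 5) and 131 (knockout vehicle 5). The cause of these changes was not tested, beyond the fewer samples that such fits hold.

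Replicate numbers gave little sign of pairing these libraries: the deviations of 10 same-numbered pairs from their group means correlated at -0.08 to 0.123, over 0.1 in 1 pair. These correlations run over all tested genes, and pairing limited to some genes was not tested. With the replicate number as a block the calls were 786 between the groups, 64 for the mean of both, 18 for clozapine, 385 for the knockout and 16 alike genes. None of the 143 named gene results reversed its direction under the settings run. Of them, 64 lost their call with the block, 27 with only the groups compared, 20 with 1 surrogate variable, 9 with the length and GC correction and 0 with unrounded counts or DESeq2's size factors.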

Other observations

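Genes that passed in either comparison were dense along part of chromosome 12, a stretch chosen after the values were seen. Over 455 windows of 5 Mb with at least 10 tested genes, a median of 6.67% of a window's tested genes passed for wild-type clozapine against knockout vehicle or for the mean of both against wild-type vehicle. The top 2 windows lie on chromosome 12: 7 of 17 genes passed in the window of 15 to 20 Mb (41.2%) and 5 of 15 in that of 25 to 30 Mb (33.3%), and the third was on chromosome 2 with 5 of 18 (27.8%). Hpcal1, a neuronal calcium sensor in the first window, was at 32.1, 26.5 and 28.7 CPM in wild-type clozapine, at 63.4, 61.6 and 55.2 CPM in knockout vehicle and at 22.4, 27.0 and 27.2 CPM in wild-type vehicle (log2 change -1.05 between the first 2 groups, edgeR adjusted p = 4.4e-06). Adi1, an enzyme of methionine salvage in the second, was at 34.3, 46.1 and 42.3 CPM in wild-type clozapine, at 33.6, 28.5 and 23.1 CPM in knockout vehicle and at 25, 21.9 and 21.0 CPM in wild-type vehicle (0.53, edgeR adjusted p = 0.039). Acp1, a phosphatase farther along the chromosome, was at 31.8, 21.6 and 22.8 CPM in wild-type clozapine, at 36.5, 35 and 47.8 CPM in knockout vehicle and at 47.1, 45 and 45.9 CPM in wild-type vehicle (-0.65, edgeR adjusted p = 0.025).

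On chromosome 17, 3 predicted genes beside Satb1, a chromatin organizer, were higher in wild-type clozapine than in knockout vehicle: Gm37593 by 1.82, Gm37266 by 1.76 and Gm37176 by 1.52 on the log2 scale. Gm37176 was at 3.91, 3.50 and 3.47 CPM in wild-type clozapine, at 1.22, 1.12 and 1.42 CPM in knockout vehicle and at 3.18, 3.42 and 2.74 CPM in wild-type vehicle, so that knockout vehicle was the group apart. Satb1 itself differed by 0.18 (edgeR adjusted p = 0.084). Hdac2 lies elsewhere, on chromosome 10, where 2 of 46 tested genes within 5 Mb of it differed between the groups (4.35%, beside 4.94% of all tested genes).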
